A study of Mus musculus with 6 samples.

Results

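Condensins and type II topoisomerases are the enzymes that shape chromosomes for division. The 10 genes described here were chosen by name: the shared SMC subunits Smc2 and Smc4, the condensin I subunits Ncapd2, Ncapg and Ncaph, the condensin II subunits Ncapd3, Ncapg2 and Ncaph2, and the topoisomerases Top2a and Top2b. They were matched by versioned Ensembl identifier among the 55450 genes of GENCODE release M21 in the count files, and all 10 were found. The counts come from bulk RNA-Seq of primary hepatocytes of male C57BL/6 mice (C57BL/6J in the methods of the study) on normal diet, isolated by collagenase perfusion. Of the 6 libraries, 3 came from mice with undamaged liver (0 h) and 3 from mice 48 h after partial hepatectomy (PHx), in which most of the liver is cut away, and the labels give an age of 10 to 12 weeks, whereas the methods of the study give a slightly younger range at surgery. No sham-operated group was analysed here, so the effect of surgery and that of regeneration cannot be told apart, and in bulk RNA a larger share of cells that transcribe a gene cannot be told apart from more transcript per cell.

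A condensin is a ring of long coiled-coil ATPases, Smc2 and Smc4, closed by a kleisin subunit that carries a pair of HEAT-repeat subunits, and it folds chromatin into loops at the cost of ATP. Condensin I and condensin II share the SMC pair and differ in the other subunits. Condensin II is nuclear throughout the cell cycle and starts compaction in prophase, whereas condensin I reaches the chromosomes after the nuclear envelope breaks down. Type II topoisomerases pass a DNA duplex through a transient break in another, which unlinks sister chromatids. Top2a is the form of dividing cells, and Top2b is also made in cells that have left the cycle. Adult hepatocytes rarely divide until liver mass is lost, and many of them are polyploid.

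The 0 h libraries held 31419443 to 36346220 counts on genes, and the 48 h libraries 31684152 to 33093006. Levels are given as CPM, counts per 1000000 counts on genes after TMM normalization (edgeR's scaling factors). Levels of different genes are compared per kb of exon, except where the coding length or raw counts are named. Changes were tested in edgeR by quasi-likelihood, with p adjusted after Benjamini and Hochberg over the 17037 genes that reached 10 counts in 3 or more libraries, and called below 0.05. By this rule 3638 genes (21.4%) rose and 3288 (19.3%) fell, and with scaling by library size only these were 5309 and 2108. All 48 h libraries lay above all 0 h libraries in 27.8% of the genes and below them in 25%. Log2 fold changes are given ± their standard error, and gene positions are those of GENCODE on GRCm38. The median log2 fold change over the genes tested was -0.0033. The 18 hepatocyte markers, such as Alb and Ttr, took 12.2% to 14.2% of gene counts at 0 h and 10.4% to 12.8% at 48 h, with 2 of them higher and 7 lower.

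The promoters of several members hold the short elements known from cell cycle genes. RefSeq windows on GRCm38.p6, from 250 bases before to 50 bases after the gene start, were at hand for 9 of the 10 genes. The searched motifs, on both strands, were the CCAAT box (CCAAT), the cell cycle homology region or CHR (TTTGAA or TTCGAA) and an E2F site (TTTCCCGC, TTTCGCGC, TTTGCCGC or TTTGGCGC). The Top2a window held 6 CCAAT boxes and 4 CHR matches, and at least 3 CCAAT boxes were present in 3.37% of all 32851 windows. The Top2b window held 2 CCAAT boxes and no CHR or E2F match. Ncapd2 and Ncapg had matches to all 3 motifs, as had 0.146% of all windows, while the Ncapg2 window held a CHR and 2 E2F matches. The 150 bases before the RefSeq start are shown for the topoisomerases, which differ most in their change at 48 h, and for 4 condensin genes of large and small change, with matched motifs in capitals. The RefSeq starts of Top2b, Ncapd2, Ncapg and Ncapg2 lie inside the GENCODE genes, whose positions are given with the values, so these 4 stretches run partly into them.
Top2a, chr11:99024190-99024339, minus strand: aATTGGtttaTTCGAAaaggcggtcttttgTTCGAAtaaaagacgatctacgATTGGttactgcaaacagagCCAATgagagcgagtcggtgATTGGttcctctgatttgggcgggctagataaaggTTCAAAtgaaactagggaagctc
Top2b, chr14:16365056-16365205, plus strand: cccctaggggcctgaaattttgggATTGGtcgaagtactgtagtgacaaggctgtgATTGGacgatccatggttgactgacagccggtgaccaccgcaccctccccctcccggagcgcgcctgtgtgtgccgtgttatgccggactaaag
Ncapd2, chr6:125191587-125191736, minus strand: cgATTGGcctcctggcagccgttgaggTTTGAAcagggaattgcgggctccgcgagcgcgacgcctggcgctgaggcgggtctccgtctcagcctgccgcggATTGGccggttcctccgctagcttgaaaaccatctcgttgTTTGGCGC
Ncapg, chr5:45669775-45669924, plus strand: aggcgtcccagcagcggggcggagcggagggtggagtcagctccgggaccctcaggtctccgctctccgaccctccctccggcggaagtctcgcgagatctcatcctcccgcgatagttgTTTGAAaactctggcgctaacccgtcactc
Ncapg2, chr12:116405286-116405435, plus strand: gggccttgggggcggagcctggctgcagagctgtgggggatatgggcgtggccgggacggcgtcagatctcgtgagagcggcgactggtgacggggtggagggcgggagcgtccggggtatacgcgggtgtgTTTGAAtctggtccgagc
Ncaph2, chr15:89355569-89355718, plus strand: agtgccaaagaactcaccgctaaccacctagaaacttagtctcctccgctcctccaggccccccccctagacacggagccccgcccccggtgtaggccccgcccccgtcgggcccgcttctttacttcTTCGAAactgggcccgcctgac

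Over the whole windows, at the first start of each gene, 6 of the 9 genes had a CHR match, and Top2b, Ncaph and Ncapd3 had none. The stretches shown are a choice of 6 genes, of which only Top2b has no CHR match. In Top2a, Ncapg, Ncapg2 and Ncaph2 a CHR match begins between -30 and -18 relative to the RefSeq start, which is counted as 0. That of Ncapd2 begins at -123, and those of Smc2 at -145 and 26. The range was read from these matches, and the share of all windows with a CHR match in it was not computed. A CHR match was present in 19.2% of all windows, a CCAAT box in 37.4% and an E2F match in 2.26%. Ncaph2, which rose 1.89-fold, had a CHR match, and the window of Ncaph, which rose 53.0-fold, had no match to any of the 3 motifs. The E2F matches of Ncapg and Ncapg2 and the CCAAT box of Ncapg lie outside the stretches shown. So do the CCAAT boxes of Top2a that begin at -227 and -189, its CHR match at -179 and the CCAAT box of Ncapd2 at -177. Smc2 had 1 CCAAT box and 2 CHR matches. The Ncapd3 window at its first annotated start had none of the 3 motifs, and that at its other start had 1 CHR match. These matches describe the letters of the windows only.

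**Figure D1:**
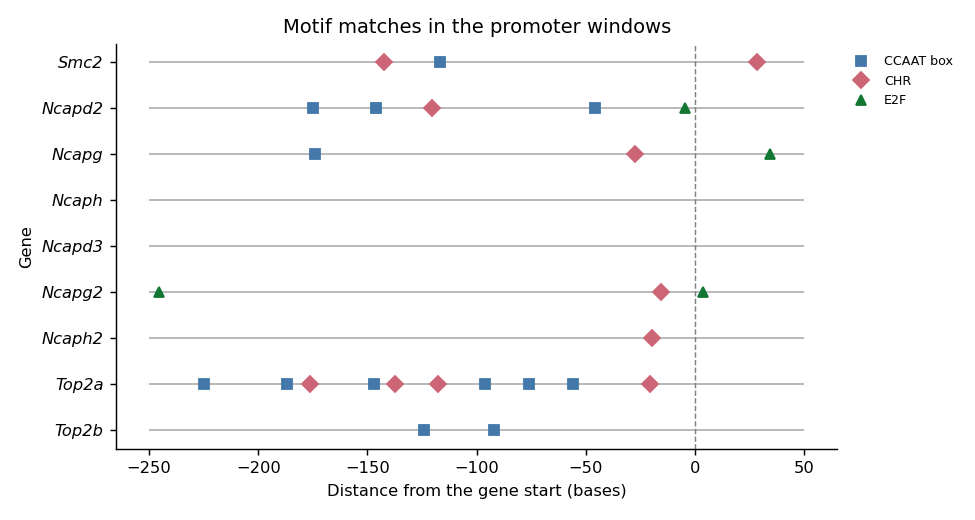
Matches to the CCAAT box (squares), CHR (diamonds) and E2F motif (triangles) along the promoter windows of 9 genes, as distance in bases from the gene start (dashed line). Of Ncapd3 the window at its first start is drawn. Top2a carries the most matches, 6 CCAAT boxes and 4 CHR, and the lines of Ncaph and Ncapd3 are empty.

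Of the 10 genes, 9 rose by 48 h and none fell, beside 21.4% and 19.3% of all genes tested, while Top2b did not pass the test. The same 9 had all 48 h libraries above all 0 h libraries, beside 27.8% of the genes tested, and none had them all below, beside 25%. The members fell apart by size: 7 rose between 10.9-fold and 73.0-fold, Ncapd3 and Ncaph2 rose 2.38-fold and 1.89-fold, and Top2b stood at 1.06-fold. The median log2 fold change of the members was 4.22, ranging from 0.08 to 6.19. All 10 passed the filter on low counts. Ncapg, with 7 to 9 counts per library at 0 h, passed it through its 48 h libraries alone and was bound to differ, so its call carries no weight of its own and the count without it is 8. Ncaph, with 7, 16 and 17 counts at 0 h, did not reach 10 in every 0 h library and also needed a 48 h library to pass.

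**Figure D2:**
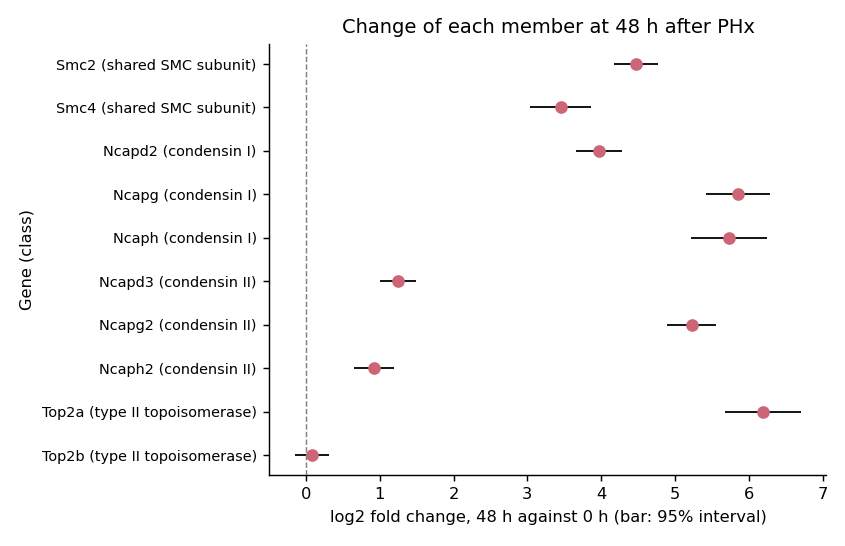
Log2 fold change of each gene at 48 h against 0 h (points) with its 95% confidence interval (bars) from edgeR, 3 libraries per time point, and a dashed line at no change. Top2a stands highest at 6.19, Ncapd3 and Ncaph2 stand at 1.25 and 0.92, and only the interval of Top2b includes 0.

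The shared SMC subunits both rose. Smc2 (ENSMUSG00000028312.19, chromosome 4, 52439243 to 52488260, plus strand) stood at 2.04, 2.35 and 2.11 CPM in the 0 h libraries and at 49.1, 51.8 and 43.0 CPM in the 48 h libraries. Smc4 (ENSMUSG00000034349.14, chromosome 3, 69004738 to 69034623, plus strand) stood at 3.48, 5.39 and 5.79 CPM at 0 h and at 57.4, 57.3 and 46.1 CPM at 48 h. For both genes every 48 h library lay far above every 0 h library, and 48 h replicate 3 was the lowest of its group. The log2 fold change was 4.46 ± 0.135 for Smc2 (adjusted p = 1.78e-08 in edgeR's quasi-likelihood test) and 3.45 ± 0.186 for Smc4 (adjusted p = 3.54e-07 in the same test). The ratio of Smc2 to Smc4 counts per kb, taken within a library and so free of any scaling between libraries, was 0.559, 0.416 and 0.347 at 0 h. At 48 h it was 0.814, 0.860 and 0.888, above every 0 h library and closer to 1.

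The condensin I subunits all rose, Ncapg and Ncaph from very low levels and Ncapd2 from a higher one. Ncapd2 (ENSMUSG00000038252.13, chromosome 6, 125168007 to 125191701, minus strand), a HEAT-repeat subunit, had 4.84, 5.0 and 4.64 CPM at 0 h and 74.9, 87.7 and 64.2 CPM at 48 h. Ncapg (ENSMUSG00000015880.13, chromosome 5, 45669919 to 45700546, plus strand), the other HEAT-repeat subunit, had 0.238, 0.290 and 0.271 CPM at 0 h and 16.6, 15.9 and 14.4 CPM at 48 h. Ncaph (ENSMUSG00000034906.15, chromosome 2, 127103809 to 127133954, minus strand), the kleisin, had 0.238, 0.516 and 0.512 CPM at 0 h and 24.5, 24.2 and 19.7 CPM at 48 h. In each of the 3 genes the time points were widely separated. At 0 h Ncapg and Ncaph were close to the limit of these libraries, where 3 counts correspond to 0.0825 to 0.0955 CPM without TMM factors, and Ncaph had 7, 16 and 17 counts. The log2 fold changes were 3.97 ± 0.143 for Ncapd2, 5.85 ± 0.193 for Ncapg and 5.73 ± 0.232 for Ncaph, with adjusted p-values of 3.44e-08, 2.51e-08 and 6.24e-08 in edgeR's test. The p-value of Ncapg carries no weight of its own, since Ncapg passed the filter through its 48 h libraries alone. In undamaged liver Ncapd2 stood at 0.770 ± 0.0286 CPM per kb (SD, n = 3), above Ncaph at 0.0981 ± 0.0370 and Ncapg at 0.0377 ± 0.00371 CPM per kb.

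Within condensin II the subunits did not move together. Ncapg2 (ENSMUSG00000042029.7, chromosome 12, 116405402 to 116463731, plus strand), the counterpart of Ncapg, stood at 1.23, 1.35 and 1.78 CPM at 0 h and at 56.3, 54.2 and 53.6 CPM at 48 h. Ncapd3 (ENSMUSG00000035024.16, chromosome 9, 27030175 to 27095315, plus strand), the counterpart of Ncapd2, stood at 16.5, 19.4 and 17.1 CPM at 0 h and at 44.2, 43.5 and 38.5 CPM at 48 h. Ncaph2 (ENSMUSG00000008690.15, chromosome 15, 89355719 to 89372826, plus strand), the kleisin, stood at 30.6, 22.7 and 26.4 CPM at 0 h and at 50.5, 51.6 and 48.6 CPM at 48 h. All 3 genes were higher in every 48 h library, but Ncapg2 rose 37.4-fold (95% confidence interval 29.7 to 47.0), Ncapd3 2.38-fold (2.01 to 2.82) and Ncaph2 1.89-fold (1.57 to 2.28). The log2 fold changes were 5.22 ± 0.149, 1.25 ± 0.111 and 0.92 ± 0.12, with adjusted p-values of 1.74e-08, 1.41e-05 and 0.000188 in edgeR's test. Among the 10 genes the coefficient of variation at 48 h ran from 2.51% for Top2b, 2.59% for Ncapg2 and 2.98% for Ncaph2 to 15.6% for Ncapd2, and that of Ncapg2 was 19.9% at 0 h.

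The difference within condensin II was also seen in ratios taken inside each library. Per kb, Ncapg2 was 0.0589, 0.0555 and 0.0825 of Ncapd3 at 0 h and 1.01, 0.989 and 1.11 of it at 48 h. With the coding length in place of the exon length, an alternative added after these values were seen, it was 1.69, 1.65 and 1.84 of Ncapd3 at 48 h, so the near equality at 48 h depends on the length used. Relative to Ncaph2 it went from 0.0169, 0.0252 and 0.0285 to 0.471, 0.443 and 0.465. The ratio of Ncapd3 to Ncaph2 was 0.287, 0.454 and 0.345 at 0 h and 0.466, 0.448 and 0.421 at 48 h, and here the time points overlapped. The exact permutation test (two-sided, 3 libraries against 3) gave p = 0.1 for the first and second of these ratios, the smallest p this design allows, and p = 0.3 for that of Ncapd3 to Ncaph2. These 3 pairs were chosen after the values of the genes were seen.

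Top2a (ENSMUSG00000020914.17, chromosome 11, 98992943 to 99024189, minus strand) had 0.852, 1.77 and 1.72 CPM at 0 h and 102, 124 and 93.8 CPM at 48 h. It had the largest rise of the 10 genes, 73.0-fold (95% confidence interval 51.1 to 104), and ranked 51 of the 17037 genes tested by log2 fold change. Its log2 fold change was 6.19 ± 0.232 (adjusted p = 4.31e-08 in edgeR's test). Top2b (ENSMUSG00000017485.11, chromosome 14, 16365179 to 16435462, plus strand) had 35.7, 42.8 and 41.4 CPM at 0 h and 41.2, 43.4 and 42.1 CPM at 48 h, and the time points overlapped. Its log2 fold change was 0.08 (95% confidence interval -0.15 to 0.31, adjusted p = 0.579 in edgeR's test), which leaves room for a change of 0.901-fold to 1.24-fold. The sign of this small value is not settled, since it was -0.01 with upper-quartile normalization and also -0.01 without 0 h replicate 1, and 0.28 (adjusted p = 0.0633) with scaling by library size only in edgeR. The median log2 fold change over all genes tested moved as well, to -0.086 with upper-quartile normalization and 0.20 with scaling by library size only. Per kb, Top2a was 0.0387, 0.0671 and 0.0672 of Top2b in the 0 h libraries and 4.02, 4.64 and 3.61 times Top2b in the 48 h libraries. With the coding length in place of the exon length, Top2a still lay below Top2b at 0 h and above it at 48 h, at mean log2 ratios of -4.78 and 1.40.

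**Figure D3:**
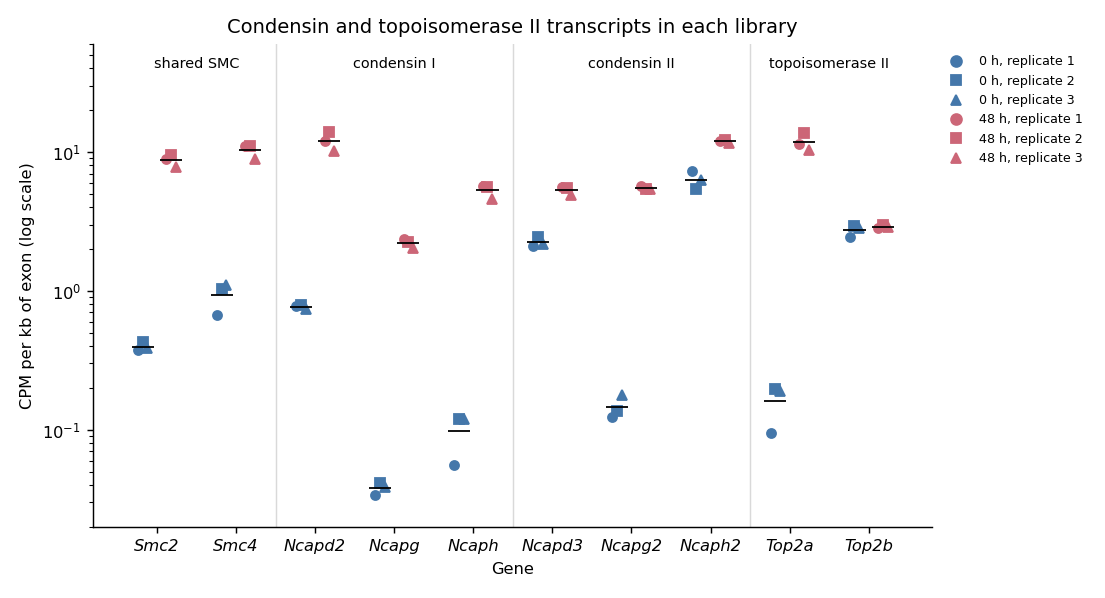
CPM per kb of exon of each gene in each of the 6 libraries on a log axis, with the 0 h libraries in blue, the 48 h libraries in red, a symbol for each replicate number and a bar at the group mean. Every gene but Top2b has its 48 h libraries above its 0 h libraries, and the spread between genes is wider at 0 h than at 48 h.

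In undamaged liver the members covered a wide range of levels. Ncaph2 was highest at 6.33 ± 0.944 CPM per kb (SD, n = 3), followed by Top2b at 2.74 ± 0.259, Ncapd3 at 2.24 ± 0.191 and Smc4 at 0.937 ± 0.237. Ncapd2 and Smc2 came next, then Top2a at 0.161 ± 0.0574 and Ncapg2 at 0.146 ± 0.0291, and Ncaph and Ncapg were lowest. The libraries of neighbours in this order overlapped for Top2b and Ncapd3, for Smc4 and Ncapd2, and for Top2a and Ncapg2, and were separate for the others. At 48 h the order had changed, with Ncapd2 at 12.1 ± 1.88, Ncaph2 at 12.0 ± 0.357, Top2a at 11.8 ± 1.74, Smc4 at 10.3 ± 1.25 and Smc2 at 8.76 ± 0.822 CPM per kb, each overlapping with the next. Ncapg2, Ncapd3 and Ncaph then lay together per kb of exon at 5.50 ± 0.142, 5.33 ± 0.393 and 5.29 ± 0.629, above Top2b at 2.89 ± 0.0726 and Ncapg at 2.21 ± 0.155. The exon length counts all annotated exons of a gene, and with the coding length Ncaph2 came first at 48 h, then Top2a, Ncapd2 and Ncapg2, while Ncapg stayed last. Ncapg2, Ncaph and Ncapd3 then no longer lay together, at means of 16.0, 10.4 and 9.31 CPM per kb of coding length.

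Comparing the counterpart subunits gives the balance between the transcripts of the complexes. Ncapd2 was 0.369, 0.325 and 0.341 of Ncapd3 per kb at 0 h and 2.14, 2.54 and 2.10 times Ncapd3 at 48 h. Ncaph was 0.00759, 0.0222 and 0.0189 of Ncaph2 at 0 h and 0.473, 0.457 and 0.394 of it at 48 h. Ncapg was 0.274, 0.301 and 0.215 of Ncapg2 at 0 h and 0.414, 0.412 and 0.379 of it at 48 h. In each pair the ratio was higher in every 48 h library than in any 0 h library, but the gain of the condensin I subunit ranged from 1.54-fold for Ncapg over Ncapg2 to 29.9-fold for Ncaph over Ncaph2. Averaged over the 3 pairs, the log2 ratio of condensin I to condensin II was -3.19 ± 0.251 at 0 h and -0.44 ± 0.104 at 48 h (SD, n = 3), a shift of 2.74. The 5 counterpart ratios, those of Smc2 to Smc4 and Top2a to Top2b included, each separated the time points completely (two-sided exact permutation test, p = 0.1, and 0.1 after adjustment over the 5 pairs, the smallest value possible with 3 libraries against 3).

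**Figure D4:**
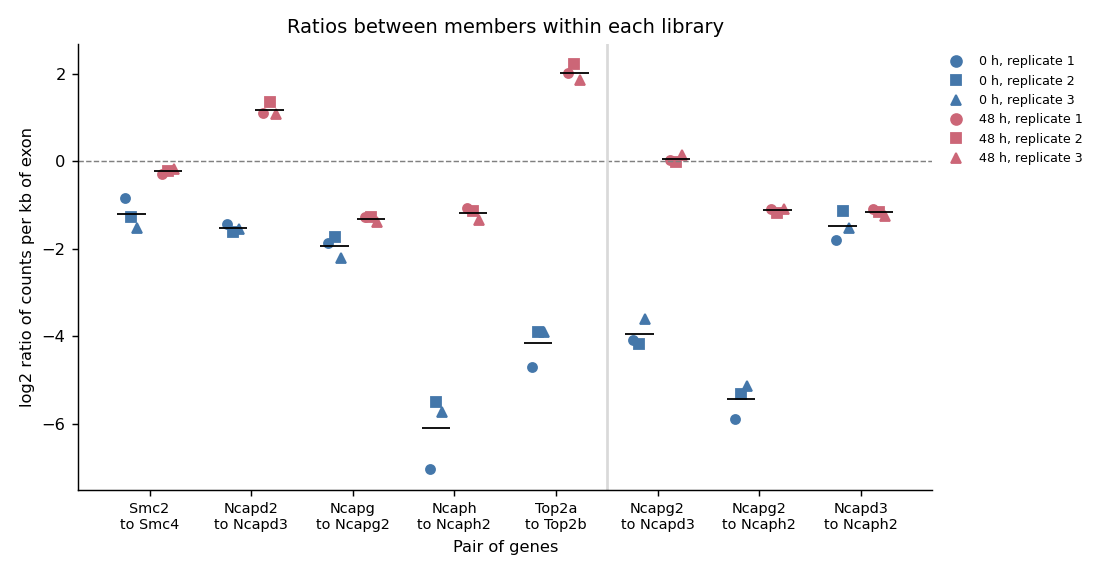
Log2 ratio of counts per kb of exon between pairs of members in each library (symbols by replicate number, 0 h in blue, 48 h in red, bars at the group means), with the counterpart pairs left of the grey line and pairs within condensin II right of it. The ratios of Ncaph to Ncaph2 and Top2a to Top2b move most, and the ratio of Ncapd3 to Ncaph2 overlaps between time points.

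Genes known to act on condensins and on Top2a mostly rose as well. Of 14 such partners, 13 rose and none fell, beside 21.4% of all genes tested being higher, with a median log2 fold change of 5.30. The kinase genes had log2 fold changes of 5.57 ± 0.255 for Cdk1, whose kinase phosphorylates condensin subunits at mitotic entry, 6.16 ± 0.258 for Plk1, and 6.31 ± 0.273 for Aurkb, the catalytic subunit of the chromosomal passenger complex and the largest rise of this list. Kif4, a chromokinesin that works with condensin I on the chromosome axis, rose from 0.434 ± 0.144 to 24.7 ± 4.83 CPM (SD, n = 3). Cdca2, which recruits a phosphatase to chromosomes at mitotic exit, rose from 1.03 ± 0.375 to 38.2 ± 8.13 CPM. The adjusted p-values of these 5 genes were at most 1.73e-07 in edgeR's test.

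The smallest log2 fold changes among the 14 partners were those of Mcph1 and Akap8. Mcph1, which encodes microcephalin, an inhibitor of condensin II, stood at 6.00 ± 0.266 CPM at 0 h and 17.9 ± 1.44 CPM at 48 h (SD, n = 3), a log2 fold change of 1.57 ± 0.126 (adjusted p = 6.57e-06 in edgeR's test), nearer to those of Ncapd3 and Ncaph2 than to that of Ncapg2. Akap8, an anchoring protein linked to condensin I, was the one partner that did not pass, at 32.3 ± 6.76 and 34.8 ± 1.86 CPM (log2 fold change 0.11, adjusted p = 0.572 in edgeR's test). Without 0 h replicate 2, its highest 0 h library, Akap8 passed the same test as higher (log2 fold change 0.29, adjusted p = 0.0374), and over the other alternatives the adjusted p lay between 0.124 and 0.959, with a log2 fold change of -0.02 without 0 h replicate 1 and 48 h replicate 3 together.

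The other SMC complexes and topoisomerases, taken from lists of gene names, had smaller median changes. Of 17 genes of cohesin and its regulators, 9 were higher and 2 lower, beside 21.4% and 19.3% of all genes tested, with a median log2 fold change of 0.42. The largest value was that of Cdca5 (sororin), which protects cohesion, at 6.30, from 1, 7 and 4 counts at 0 h to 373, 392 and 321 counts at 48 h. Cdca5 passed the filter through its 48 h libraries alone and was bound to differ, as the only such gene among the 9 higher ones. Esco2, Espl1 and Sgo1 followed at 6.02, 5.49 and 4.11, and the next gene was Rad21 at 1.59. The smallest value was that of Mau2, a subunit of the cohesin loader, at -0.54 (adjusted p = 0.00400 in edgeR's test). Of the 6 genes of SMC5/6, the complex that serves recombination repair, 4 were higher and 1 was lower, from Smc6 at 1.05 to Nsmce3 at -0.42, with a median of 0.40. Of 9 other topoisomerase and repair genes, 4 were higher and 1 was lower, with a median of 0.42, the largest value being that of Rmi2, a partner of the Top3a and Blm complex, at 5.75, and the smallest that of Top1mt, the mitochondrial type I enzyme, at -0.38. Rmi2 had 2, 2 and 7 counts at 0 h, so it too passed the filter through its 48 h libraries alone and was bound to differ, as the only such gene among the 4 higher ones. None of the lower calls in the SMC5/6 and topoisomerase lists remained with scaling by library size only, which moved the median log2 fold change over the genes tested to 0.20 and left 1 lower cohesin gene, while the higher genes became 11 in the cohesin list and 6 among the other topoisomerases. Without 0 h replicate 3, 48 h replicate 1 or 48 h replicate 2, the higher SMC5/6 genes were 2 in place of 4 and none was lower. With all libraries they were 3 with DESeq2, upper-quartile normalization, TMM from protein-coding genes only, no filter on low counts or a replicate block.

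**Figure D5:**
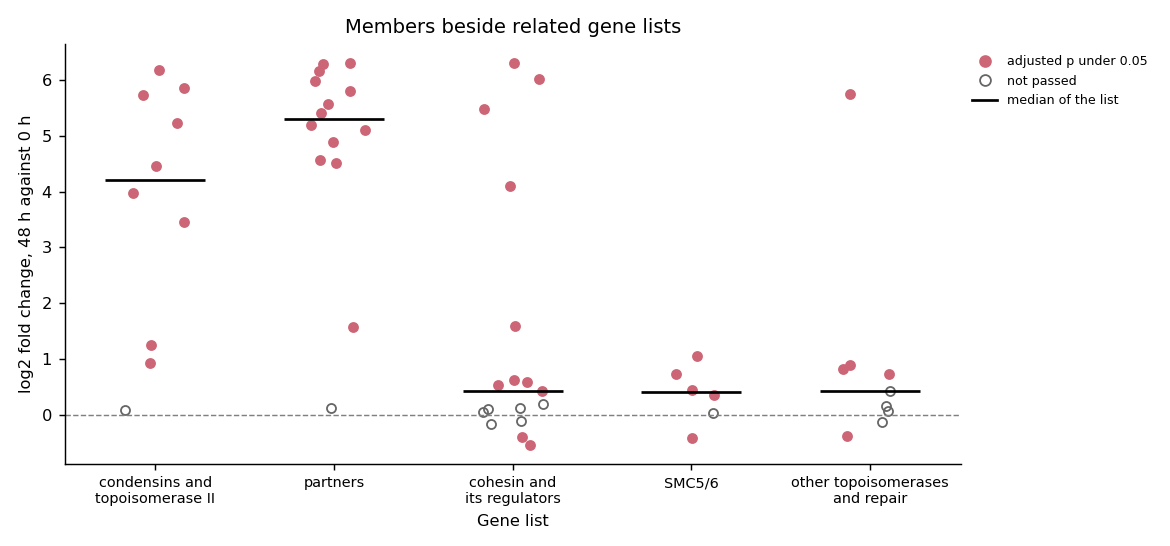
Log2 fold changes at 48 h against 0 h of the 10 members, 14 partners, 17 cohesin genes, 6 SMC5/6 genes and 9 other topoisomerase and repair genes. Filled points passed an adjusted p of 0.05 in edgeR's test, open points did not, and bars mark list medians of 4.22, 5.30, 0.42, 0.40 and 0.42.

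The genes whose pattern over the 6 libraries was nearest to that of Top2a, by the root mean square difference of centred log2 CPM among the 13331 genes that averaged 1 CPM or more, were Clspn, Cenpi and Hist1h3g, at distances of 0.108, 0.132 and 0.156. Clspn encodes claspin of the replication checkpoint, Cenpi a centromere protein and Hist1h3g a histone H3 of a family of near-identical genes whose counts are uncertain. Nearest to Top2b were Zfp617, Erp44 and Tango2, at distances of 0.0319, 0.0352 and 0.0356. With 2 time points, such likeness rests mainly on the size of the difference between them.

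Libraries within a time point ranked alike for many of these genes. Of the 10 genes, 9 were lowest in replicate 3 among the 48 h libraries, as were 13 of the 14 partners, and at 0 h replicate 1 was lowest for 8 of the 10 genes and 10 of the 14 partners. Of all genes tested, 34.9% were lowest in 48 h replicate 3 and 30.2% in 0 h replicate 1. Top2b at 48 h was the exception among the members. Without both libraries, and with the filter loosened to 10 counts in 2 libraries, an alternative chosen after these values were seen, 9 genes were again higher and none lower, and the log2 fold changes of Top2a, Ncapg2 and Ncaph2 were 6.01, 5.13 and 1.05 in edgeR.

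Markers of other liver cells took small shares of the counts, and their calls are read beside the 21.4% of all genes tested that were higher and the 19.3% that were lower. The 12 endothelial markers took 0.0256% to 0.0396% of gene counts at 0 h and 0.0198% to 0.0238% at 48 h, and 11 of them were lower. The 10 Kupffer cell markers took 0.00732% to 0.0110% and 0.0114% to 0.0150%, with 2 of them higher (Marco and Cd5l), a share near that of all genes, and none lower. The Kupffer shares did not overlap between the time points, but the summed CPM did, at 78.4 to 118 and 112 to 137. The 10 stellate cell markers took 0.0116% to 0.0183% and 0.00900% to 0.0121%, with 1 of them higher and 2 lower, shares near or under those of all genes. The stellate shares overlapped, but the summed CPM did not, at 124 to 193 and 88.6 to 111. The 6 cholangiocyte markers took 0.000891% to 0.00194% and 0.00181% to 0.00288%, and of the 2 that could be tested 1 was higher (Spp1, whose libraries overlapped between time points). Most of these counts were those of Sox9, with 530, 228 and 467 of 611, 291 and 504 at 0 h. Krt7, Krt19 and Epcam had at most 4 counts in a library. The 10 lymphocyte markers summed to 2.73 to 3.84 CPM at 0 h and 2.70 to 4.03 CPM at 48 h, and the 10 neutrophil markers to 1.10 to 1.23 and 1.01 to 1.51 CPM, with the lymphocyte gene Cd3d and the neutrophil genes Mpo, Ltf and Retnlg at 0 counts in every library. Of these last lists 1 gene each could be tested, and the neutrophil gene, Csf3r, was lower while the lymphocyte gene, Ptprc, did not pass. Ptprc held 73, 111 and 111 of the 80, 119 and 123 counts of the lymphocyte list at 0 h. At 48 h it held 85, 122 and 112 of 91, 144 and 124, so the lymphocyte sum rests mainly on Ptprc. The part of such cells in the rise of the members was not tested.

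Some member counts are less certain because other annotated genes share their exons. Genes on the opposite strand overlapped 19.7% of the exon bases of Ncaph2 (Sco2 and Tymp), 13.4% of those of Ncapg (Lcorl) and 12.3% of those of Top2b (Rarb). Small RNA genes on the same strand overlapped 3.78% of Ncapd2 and 1.35% of Top2a. Whether the reads were counted by strand is not given in the sources used here. Reads that fell on more than 1 gene made up 4.27% to 5.29% of each file and were counted for none.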

How the data were processed

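RNA was extracted with TRIzol from hepatocytes isolated at 0 h and 48 h after PHx, with 3 libraries per time point. The authors deposited 1 file of raw counts per gene for each library. The submitters' processing notes name FastQC 0.11.5, Trim Galore 0.6.4, STAR 2.6, HTSeq 0.12.4, DESeq2 and the mm10 genome. The counting mode and strand setting are not given in the sources used here. Reads on no gene made up 24.3% to 32.7% of each file and were left out of the library sizes, as were ambiguous reads.

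Groups came from the labelled time point. Gene names, positions and exon lengths were taken from GENCODE M21 on GRCm38, where all 55450 identifiers matched. Genes that reached 10 counts in 3 or more libraries were tested with edgeR 4.0.16 (TMM, quasi-likelihood test, R 4.3.3) and adjusted after Benjamini and Hochberg over all 17037 of them. The script was tested on simulated counts first. Ratios between members were computed within each library and compared by two-sided exact permutation tests (SciPy 1.17.1). Alternatives were DESeq2 1.42.0, limma-voom 3.58.1, other scalings and filters, other lengths, a replicate block and leaving out libraries. As the study describes it, the 3 libraries of a time point came from separate hepatocyte preparations of different mice and are biological replicates. No library pair agreed within sampling noise.

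The members and gene lists were chosen with earlier results of these data known. Named were all members, the largest and smallest log2 fold change in each gene list, partner genes with a described role (1 is not reported here), and the 3 genes nearest to Top2a and Top2b in pattern. Markers named beside them (Alb, Ttr, Marco, Cd5l, Spp1, Sox9, Krt7, Krt19, Epcam, Csf3r, Ptprc and those at 0 counts) were chosen after their values were seen. So were the cohesin genes Esco2, Espl1, Sgo1 and Rad21.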

Additional observations from a re-analysis of the deposited data

How the results depend on the processing

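The number of members higher at 48 h was 9 in all settings but those that left out a single 48 h library, where it was 8 because Ncapg did not pass the filter, and no member was lower in any setting. Top2b, which passed in none, turned to a log2 fold change of -0.0072 with upper-quartile normalization, and ranged from -0.0052 without 0 h replicate 1 to 0.12 without 0 h replicate 2 and 0.28 with scaling by library size only. Over all genes tested, the median was -0.086 with upper-quartile normalization and 0.20 with scaling by library size only. Scaling by library size only lowered the number of lower genes from 3288 to 2108, and gave 1 lower cohesin gene in place of 2 and 0 lower genes in the SMC5/6 and other topoisomerase lists, with 11 higher cohesin genes in place of 9 and 6 higher other topoisomerase genes in place of 4. With a replicate block the lower genes of these lists were also 1, 0 and 0, and no call of a member changed. Same-numbered libraries correlated at 0.0335, -0.0674 and -0.138 in their deviations from the group means, so the replicate numbers are not read as pairs. Leaving out 1 library in turn gave 1 to 2 lower cohesin genes, 2 to 3 higher (4 with all libraries) and 0 to 1 lower SMC5/6 genes, and 0 to 1 lower genes among the other topoisomerases. The cause of these losses was not tested.

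Length affects a ratio at one time point and not its shift between them. With raw counts and with the coding length, the mean log2 ratio of condensin I to condensin II was -3.45 and -3.44 at 0 h, and -0.71 and -0.70 at 48 h, where summed levels gave -0.23. The same order of settings gave -4.86 and -4.78 at 0 h and 1.33 and 1.40 at 48 h for Top2a to Top2b, -1.87 and -1.76 at 0 h and 0.84 and 0.95 at 48 h for Ncapd2 to Ncapd3, and -2.43 and -2.25 at 0 h and -1.81 and -1.63 at 48 h for Ncapg to Ncapg2. Smc2 to Smc4 gave -0.16 and -0.045 at 48 h, and Ncaph to Ncaph2 gave -1.41 at 48 h with the coding length. That length, added after the values were seen, also gave -3.22 at 0 h and 0.79 at 48 h for Ncapg2 to Ncapd3, -0.78 at 48 h for Ncapg2 to Ncaph2, and -1.89 and -1.57 for Ncapd3 to Ncaph2. At 0 h, Ncapg and Ncaph had at most 17 counts in a library, which limits the precision of their fold changes.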
